A study of Mus musculus with 15 samples.

Results

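The genes described here are the 10 mouse genes for telomere protection and telomerase: Terf1, Terf2, Terf2ip, Tinf2, Acd, Pot1a, Pot1b, Ctc1, Tert and Terc. They were chosen by name for their known function, with earlier results of these data known. All 10 were found among the 51627 genes of the stem cell table and the 53564 genes of the embryo table. RNA was sequenced in 4 libraries of the mouse embryonic stem cell (ESC) line J1 and in 11 libraries of mouse 2-cell embryos. Of the ESC libraries, 2 were controls labelled wild type and 2 carried the genotype label Zscan4 OE (overexpression), and all 4 were grown without feeder cells and share the passage label PN+8. Of the embryo libraries, 5 were controls labelled wild type and 6 were labelled Zscan4 RNAi (RNA interference). The Zscan4 genes encode zinc finger proteins made in the 2-cell embryo and, briefly, in a few cells of an ESC culture, where they are known for their part in telomere lengthening. The vector, the promoter and the duration of overexpression, the RNAi reagent, the strain and age of the embryos, and whether the ESC lines were clones are not stated in the labels.

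Mammalian chromosome ends are runs of the repeat TTAGGG that are bound by shelterin. Within this complex Terf1 and Terf2 bind the duplex repeat, Terf2ip (Rap1) binds Terf2, Tinf2 (Tin2) bridges the duplex binders to Acd (Tpp1), and Acd carries Pot1a and Pot1b, which cover the overhang. The enzyme telomerase, made of the reverse transcriptase Tert and the template RNA Terc, adds repeats to the overhang, and the CST complex, of which Ctc1 is the largest subunit, ends that extension and directs synthesis of the complementary strand. Mouse ESCs are known for high telomerase activity, whereas the cleavage-stage embryo is known to lengthen telomeres largely by recombination.

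The sequence that ties these genes to the repeat is the template inside Terc (chr3:96414437-96414859, minus strand, mm10), whose annotated transcript is 423 bases long. Bases 1 to 80 of that transcript, from GENCODE vM21, are shown because they hold the template; capitals mark bases 28 to 36, which are complementary to the telomere repeat.
Terc: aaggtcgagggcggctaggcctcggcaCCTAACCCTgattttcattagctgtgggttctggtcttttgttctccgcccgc

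Values are reads divided by 1 size factor per library and are called normalised reads. Depth ranged from 21820093 to 26555027 gene-assigned reads in the ESC libraries and from 695524 to 1432566 in those of embryos, where 1 read was worth 0.687 to 1.39 normalised reads. The summed Zscan4 genes stood at 152 and 212 normalised reads in the ESC controls and at 20005 and 19449 with overexpression, 108-fold higher (exact permutation test, 2-sided p = 0.333, the smallest that 2 libraries against 2 allow). In embryos the sum was 734 ± 272 (SD, n = 5) in controls and 230 ± 142 (SD, n = 6) with RNAi, 3.20-fold lower (exact permutation p = 0.00649), and the ranges overlapped, with control 5 at 345 and the highest RNAi library at 383. All 8 ESC markers were detected in the ESC libraries, with sums of 95780 to 96034 in controls and 106052 to 136439 with overexpression. In the embryos the 7 oocyte-stored markers and the 3 genes of 2-cell transcription were detected, while the 8 cumulus and granulosa markers summed to 1.68 to 17.0 in controls and 3.28 to 12.4 with RNAi, with Has2, Amh and Inhba at 0 in every library. The labels do not say whether replicates are separate cultures or embryo pools, so a p-value here reflects library-to-library spread alone, which may be technical.

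The first comparison asks how the telomere genes differ when ESCs carry more Zscan4. Ctc1 and Tert were lower in the overexpressing cells, by 4.08-fold and 2.51-fold, and Terc went from no read to a few reads. None of the 7 shelterin genes passed in limma, edgeR or voom (3 had an unadjusted p under 0.05), and 1, Pot1b, passed in DESeq2. Thus 3 of the 10 genes passed, 1 higher and 2 lower, where 23.2% of the 20888 genes tested passed (11.7% higher and 11.4% lower), a share near that of the 10. The 1 higher was Terc, which met the filter for testing through the overexpression libraries alone. The median log2 fold change of the 10 was 0.17 and that of all genes tested was -0.02. Tests were made with limma on log2(value + 1) with Benjamini-Hochberg adjustment over all genes tested at a threshold of 0.05, and fold changes are on that scale. The pseudocount pulls low genes towards 0, while a mean of logs can exceed the ratio of group means where libraries spread widely. With edgeR on the recovered reads 21.6% of genes passed, and 3 of the 10.

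Ctc1 (chr11:69015911-69036473, plus strand, mm10) stood at 11966 and 11416 normalised reads in the ESC controls and at 2778 and 2948 with overexpression. The groups did not overlap, and each pair of libraries lay close together beside the gap between the groups. Separation alone is weak here and for the ESC genes below, since an exact permutation test on 2 libraries against 2 gives no p under 0.333. The share of all genes with separated groups was not counted. The log2 fold change was -2.03 (SE 0.15, limma adjusted p = 0.0117). Ctc1 was the most abundant of the 10 genes per length in the control cells, at 1720 ± 57.2 normalised reads per kilobase of exon (SD, n = 2), and it stood at 421 ± 17.7 with overexpression, below Terf1.

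Other genes of its chromosome were also lower. Of 1537 genes tested on chromosome 11, 353 (23.0%) were called lower and 94 higher, and their median log2 fold change was -0.49. Among the 35 genes tested within 500 kb of Ctc1, 13 were called lower in limma, the median log2 fold change was -0.96, and the value of Ctc1 ranked 5 from the lowest. With each library centred on the median of the same chromosome, the log2 fold change of Ctc1 was -1.41 (limma adjusted p = 0.0133). The part of the chromosome in the rest of the difference was not tested.

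The promoter window of Ctc1 (chr11:69015661-69015960, plus strand, GRCm38.p6, from RefSeq) is shown because Ctc1 was lower in both comparisons. It runs from 250 bases before the start of the gene to 50 after it, and capitals mark CACGTG at position -70.
Ctc1: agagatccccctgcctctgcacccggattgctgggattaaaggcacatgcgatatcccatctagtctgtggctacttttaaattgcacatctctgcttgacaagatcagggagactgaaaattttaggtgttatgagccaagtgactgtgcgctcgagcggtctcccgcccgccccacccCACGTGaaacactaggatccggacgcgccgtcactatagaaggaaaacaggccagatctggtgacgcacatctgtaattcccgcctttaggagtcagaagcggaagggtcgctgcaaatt
CACGTG, which reads the same on both strands, occurs in 7.15% of the 32851 promoter windows of that length, and in 1 of the 8 telomere genes that have a window. A motif with no match in the 8, TGCACAC, occurs in 4.4% of all windows. Motifs were searched on both strands and picked after the sequences were read, and a match is a description of letters and not a binding site.

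Tert (chr13:73626911-73649843, plus strand), the catalytic subunit of telomerase, stood at 868 and 926 normalised reads in the ESC controls and at 435 and 279 with overexpression. The groups did not overlap, although the overexpression libraries differed from each other by more than the controls did. The log2 fold change was -1.36 (SE 0.28, limma adjusted p = 0.0362).

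Terc, the template RNA shown above, had no read in either ESC control and stood at 7.29 and 9.54 normalised reads with overexpression, which is 16 reads in all. Set against a floor of 3 reads over the control group, the mean with overexpression was 5.94-fold higher. That floor covers counting error only because the reads carry no molecular identifiers, and it leaves out the counting error of the 16 reads. The fitted log2 fold change of 3.22 (limma adjusted p = 0.0210) depends on the pseudocount. Terc entered the test only through the overexpression libraries, in which it was high, so the p-value adds no support beyond the read counts. How RNA was selected for the libraries is not stated in the labels. A lack of reads therefore cannot tell an absent Terc from one that the libraries did not capture. Both overexpression libraries held reads of Terc, and the call was lost with DESeq2 (adjusted p = 0.0572) and with array weights in limma (0.0539).

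Of the duplex repeat binders, Terf1 (chr1:15805646-15844052, plus strand) stood at 4128 and 4054 normalised reads in the ESC controls and at 5797 and 4326 with overexpression. Both overexpression libraries were above both controls, but they lay far apart, and the log2 fold change of 0.29 did not pass (SE 0.21, limma adjusted p = 0.346). Terf2 (chr8:107069400-107096547, minus strand) stood at 1037 and 1054 in controls and at 1023 and 1277 with overexpression, with overlapping groups (log2 fold change 0.13, limma adjusted p = 0.650). Terf1 was thus the more abundant of the pair in every ESC library, with 79.4% and 79.9% of their summed normalised reads in controls and 77.2% and 85.0% with overexpression.

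Terf2ip (chr8:112011398-112020528, plus strand), the partner of Terf2, stood at 573 and 558 normalised reads in the ESC controls and at 831 and 773 with overexpression. All values with overexpression were above the controls, and the log2 fold change of 0.50 did not pass (SE 0.17, limma adjusted p = 0.0988). The bridging genes Tinf2 and Acd overlapped between groups: Tinf2 was at 1157 and 1043 against 1124 and 1438 (log2 fold change 0.21, limma adjusted p = 0.480), and Acd at 728 and 695 against 676 and 1248 (0.37, limma adjusted p = 0.462). For Acd, overexpression library 2 stood apart from the other 3 libraries. Both genes share exonic bases with a gene on the opposite strand, so their values are uncertain. Gmpr2, which overlaps Tinf2, stood at 438 ± 1.34 in controls and 860 ± 250 with overexpression, and Carmil2, which overlaps Acd, at 1065 ± 6.32 and 542 ± 113 (SD, n = 2).

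The overhang binders were both lower in both overexpression libraries without passing the test. Pot1a (chr6:25743737-25809246, minus strand) stood at 1054 and 1077 normalised reads in the ESC controls and at 810 and 593 with overexpression (log2 fold change -0.62, SE 0.22, limma adjusted p = 0.111). Pot1b (chr17:55651951-55712628, minus strand), the rodent-specific duplicate of Pot1, was the lowest of the 9 genes detected in controls, at 152 and 180, and stood at 84.8 and 42.9 with overexpression (log2 fold change -1.44, SE 0.42, limma adjusted p = 0.0731). DESeq2 placed Pot1b below the threshold (-1.37, adjusted p = 0.0245). The Pot1a share of the summed pair was 87.4% and 85.7% in controls and 90.5% and 93.2% with overexpression, a difference of 5.36 percentage points for which the exact permutation test gave p = 0.333, its smallest value here (0.444 adjusted over the 4 share comparisons).

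**Figure D1:**
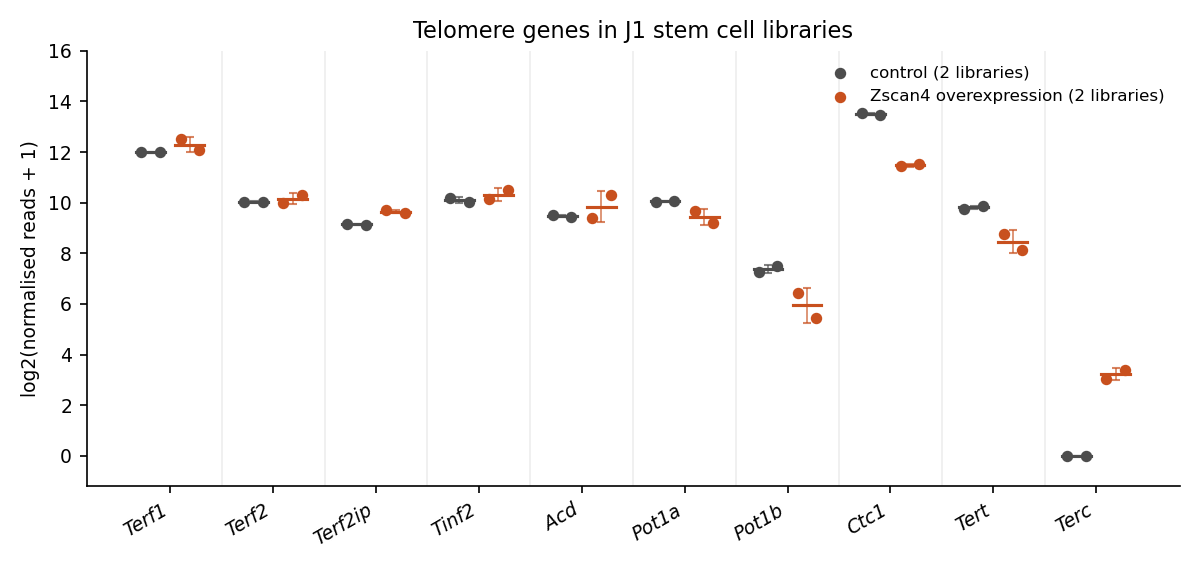
Level of each of the 10 telomere genes in the 4 ESC libraries, as log2(normalised reads + 1), with controls in grey and Zscan4 overexpression in orange. Points are libraries, horizontal bars group means and whiskers the SD of 2 libraries; the group means lie furthest apart for Terc, Ctc1, Pot1b and Tert.

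Per kilobase of exon, the order in the ESC controls was Ctc1, Terf1 (888 ± 11.3, SD, n = 2), Terf2 (227 ± 2.60), Tinf2 (223 ± 16.4), Acd (196 ± 6.45), Tert (157 ± 7.18), Pot1a (123 ± 1.81), Terf2ip (114 ± 2.20), Pot1b (31.5 ± 3.67) and Terc at 0. Only the neighbours Terf2 and Tinf2 had overlapping ranges in that order. With overexpression Terf1 led at 1098 ± 226, and Acd, Tinf2 and Terf2 followed Ctc1 with overlapping ranges between 187 and 344 normalised reads per kilobase.

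The median SD over genes on the log2 scale was 0.09 in the ESC controls and 0.41 with overexpression. Without control 1 or without control 2, which leaves a lone control that is assumed to vary like the overexpression libraries, limma called 0 genes of the whole table, with 3617 and 3646 of 20888 at an unadjusted p under 0.05. In those fits the log2 fold changes stayed as large: -2.00 and -2.06 for Ctc1 (limma adjusted p = 0.252 each time), -1.41 and -1.31 for Tert (0.309 and 0.323) and 3.22 both times for Terc (0.252).

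Markers of other cell states also differed between the ESC groups. The 3 genes of 2-cell transcription, Zscan4d among them, summed to 17.1 to 27.1 normalised reads in controls and 854 to 956 with overexpression, and 3 of 3 were called higher in limma. The 6 blood markers summed to 134 to 138 in controls and 460 to 481 with overexpression, with 1 of 5 tested called higher, and the fibroblast markers to 969 to 987 and 541 to 658, with 2 called higher and 2 lower of 5 tested. The oocyte-stored markers summed to 772 to 918 and 900 to 1658, with 2 of 6 tested called higher, and the cumulus and granulosa markers to 120 to 141 and 154 to 217, with 1 of 8 called higher. The part of 2-cell-like or other cells in the values of Ctc1, Tert and Terc was not tested.

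The other comparison asks how the same genes differ in 2-cell embryos with less Zscan4. The duplex repeat binder Terf1 was 5.42-fold lower and Ctc1 4.89-fold lower in the RNAi embryos, while the bridging genes Tinf2 and Acd were 2.41-fold and 1.85-fold higher. Of 9 genes tested, 4 passed in limma, 2 higher and 2 lower. Over the 16417 genes tested 18.2% passed, 6.13% higher and 12.0% lower, and with edgeR 13.2% passed over all genes and 4 of the 9. The median log2 fold change was -0.74 over the 9 and -0.03 over all genes tested. A lower level in these bulk libraries cannot tell fewer cells or embryos with the RNA from less RNA per cell.

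Terf1, which coats the duplex repeat and is known to be abundant in pluripotent cells, stood at 42.8, 111, 86.3, 96.0 and 24.4 normalised reads in embryo controls 1 to 5. In the RNAi libraries it ranged from 2.61 to 19.8 with a median of 13.6. The groups did not overlap, though control 5 at 24.4 was near the highest RNAi library. The log2 fold change was -2.35 (SE 0.51, limma adjusted p = 0.00563), the smallest p-value among the 9 genes. Terf2, its paralog with a like DNA-binding domain, was much lower, from 3.51 to 12.7 in controls and from 1.30 to 7.81 with RNAi, which is 42 and 32 reads in all, and its log2 fold change of -0.74 did not pass (SE 0.60, limma adjusted p = 0.417).

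The share of Terf1 in the summed pair was 89.5%, 90.4%, 93.9%, 96.5% and 65.8% in embryo controls 1 to 5 and 63.0% to 88.9% (median 70.0%) in the RNAi libraries. Control 5 lay inside the RNAi range and the other 4 controls above it. The means were 87.2 ± 12.3% (SD, n = 5) and 74.3 ± 11.3% (SD, n = 6), and the difference of -12.9 percentage points did not pass the exact permutation test (p = 0.104, 0.208 adjusted over the 4 share comparisons). Without control 5 it was -18.2 points (exact permutation p = 0.00952, unadjusted), a smaller p that follows from leaving out the control inside the RNAi range. Without any other single library the unadjusted exact permutation p was 0.0635 to 0.186. The annotated transcripts of Terf1 and Terf2 share no run of 50 bases.

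Terf2ip ranged from 12.9 to 56.8 normalised reads in the embryo controls (median 24.4) and from 1.16 to 66.5 in the RNAi libraries (median 20.3). The groups overlapped over nearly their whole range, with the highest value of the 11 libraries, 66.5, in RNAi library 3. The log2 fold change was -0.86 (SE 0.71, limma adjusted p = 0.419), and -0.23 with edgeR and -0.32 with DESeq2.

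Tinf2 (chr14:55674689-55681820, minus strand), the bridge of shelterin, stood at 83.0, 98.9, 55.7, 73.8 and 133 normalised reads in embryo controls 1 to 5 and ranged from 125 to 301 (median 228) in the RNAi libraries. The groups overlapped through control 5 alone, which lay above RNAi library 2. The log2 fold change was 1.24 (SE 0.32, limma adjusted p = 0.0136). Tinf2 shares 31.2% of its exonic bases with Gmpr2 on the opposite strand and the strand setting of the counting is not known, so its value is uncertain. Gmpr2 itself stood at 54.2 ± 16.2 (SD, n = 5) in controls and 31.4 ± 9.02 (SD, n = 6) with RNAi (log2 fold change -0.77, limma adjusted p = 0.136).

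Acd (chr8:105695860-105701102, minus strand), which links Tinf2 to the Pot1 proteins and recruits telomerase, stood at 137, 171, 225, 131 and 244 normalised reads in embryo controls 1 to 5 and ranged from 254 to 434 (median 327) with RNAi. The groups did not overlap, with a log2 fold change of 0.90 (SE 0.28, limma adjusted p = 0.0297). Acd shares 33.3% of its exonic bases with Carmil2, which was low in the embryos, at 3.02 ± 1.96 (SD, n = 5) and 1.73 ± 1.70 (SD, n = 6). The call of Acd was lost in 7 of 21 alternatives, with adjusted p from 0.0530 to 0.0861: without any filter, with total-count scaling, and without control 1, control 2, control 4, RNAi library 3 or RNAi library 6.

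The promoter window of Tinf2 (chr14:55681768-55682067, minus strand, GRCm38.p6, from RefSeq) is shown for the called shelterin gene that rose most. Capitals mark TGACGTCA, 56 bases before the start of the gene.
Tinf2: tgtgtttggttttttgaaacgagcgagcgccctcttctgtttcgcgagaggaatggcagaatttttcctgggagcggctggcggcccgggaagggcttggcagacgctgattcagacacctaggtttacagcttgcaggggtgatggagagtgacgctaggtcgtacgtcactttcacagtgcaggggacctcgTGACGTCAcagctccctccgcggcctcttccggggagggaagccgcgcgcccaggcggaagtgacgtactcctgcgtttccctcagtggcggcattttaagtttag
TGACGTCA, also the same on both strands, occurs in 1.79% of the 32851 windows. Of the telomere genes it occurs in Tinf2 and in Pot1a, at position -7, and in no other of the 8 with a window, Acd included.

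Pot1a stood at 23.7 ± 8.80 normalised reads in the embryo controls (SD, n = 5; 13.4 to 37.6, median 22.2) and at 48.6 ± 24.9 with RNAi (SD, n = 6; 19.7 to 88.6, median 40.8). The groups overlapped, and the log2 fold change of 0.92 did not pass (SE 0.42, limma adjusted p = 0.130), although it did with array weights (1.13, adjusted p = 0.0496) and with voom (1.26, adjusted p = 0.0380). Pot1b was near the limit of detection, with 22 reads over the 5 controls and 9 over the 6 RNAi libraries (log2 fold change -0.93, limma adjusted p = 0.373).

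The Pot1a share of the summed pair was 80.0%, 96.6%, 73.0%, 73.1% and 100% in embryo controls 1 to 5 and 93.9% to 100% in the RNAi libraries. The controls were spread over that whole range, and 3 of the 5 lay below all RNAi libraries. The means were 84.5 ± 12.9% (SD, n = 5) and 96.9 ± 2.90% (SD, n = 6). The difference of 12.4 percentage points did not pass the exact permutation test (p = 0.0628, 0.208 adjusted over the 4 share comparisons). It was 15.4 points without control 2 (p = 0.0333) and 16.3 without control 5 (p = 0.0190), both unadjusted exact permutation values. Those controls had the highest control shares, so a smaller p follows from leaving them out. Without any other single library the unadjusted exact permutation p was 0.110 to 0.143. The pair share no run of 50 bases.

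Ctc1 in the embryos stood at 51.2, 23.6, 32.0, 21.1 and 16.6 normalised reads in controls 1 to 5 and ranged from 0 to 14.8 (median 4.66) with RNAi. The groups did not overlap, and the nearest libraries were control 5 and RNAi library 2. The fit gave a log2 fold change of -2.49 (SE 0.65, limma adjusted p = 0.0130), on 151 reads in controls and 43 with RNAi. Ctc1 was therefore lower in the treated libraries of both comparisons, under more Zscan4 in ESCs and under less in embryos. Among the other telomere pathway genes, Sun1 was also called lower in both in limma, at log2 fold changes of -1.61 and -1.58. The share of all genes that were lower in both was not counted.

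Telomerase RNA and enzyme were at the edge of detection in the 2-cell embryos. Tert held 4 reads over the 5 controls and 18 over the 6 RNAi libraries, with values from 0 to 1.17 and from 0 to 6.52 normalised reads (log2 fold change 0.94, limma adjusted p = 0.261). Terc had no read in the controls and 11 reads in 5 of the RNAi libraries, at most 3.43 normalised reads. The ratio of its RNAi mean to a floor of 3 reads over the control group was 2.59, which leaves out the counting error of the 11 reads. Terc reached a value of 1 in 3 libraries, fewer than the 5 the filter asks for, and so was not tested. A change of Tert was not detectable at this depth.

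**Figure D2:**
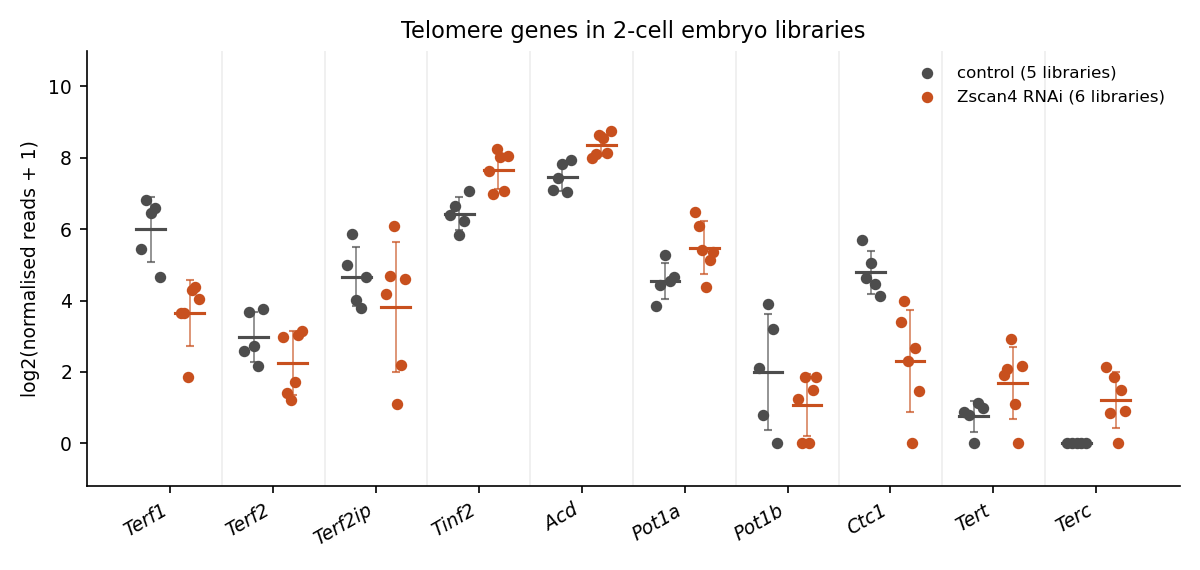
Level of each of the 10 telomere genes in the 11 embryo libraries, as log2(normalised reads + 1), with 5 controls in grey and 6 Zscan4 RNAi libraries in orange. Points are libraries, horizontal bars group means and whiskers the SD; the groups are apart for Terf1, Ctc1 and Acd, and touch for Tinf2.

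Per kilobase of exon, Acd led in the embryo controls at 50.1 ± 14.2 normalised reads (SD, n = 5), above Tinf2 at 18.0 ± 5.91 and Terf1 at 15.6 ± 7.97, and then came Terf2ip (5.67 ± 3.55), Ctc1 (4.25 ± 2.01), Pot1a (2.73 ± 1.02), Terf2 (1.68 ± 0.917), Pot1b (0.995 ± 1.10), Tert (0.130 ± 0.0780) and Terc at 0. Only Acd and Tinf2 had ranges that did not overlap; the later neighbours did not differ beyond their spread. With RNAi Acd at 92.7 ± 21.1 (SD, n = 6) and Tinf2 at 43.3 ± 14.9 again led, followed by Pot1a at 5.60 ± 2.88, while Terf1 stood at 2.89 ± 1.36, within overlapping ranges of Terf2ip, Terc and Terf2. The embryo and ESC tables were normalised separately, so their levels are not compared.

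**Figure D3:**
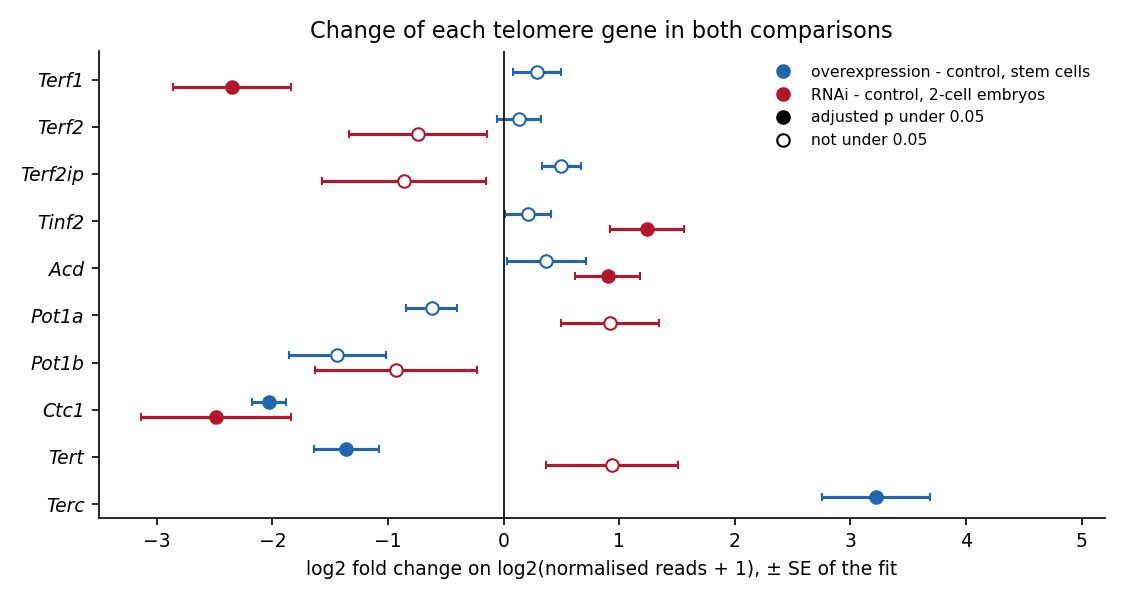
Log2 fold change (treated minus control, on log2(normalised reads + 1)) of each telomere gene with the standard error of the limma fit, for Zscan4 overexpression in ESCs (blue) and Zscan4 RNAi in embryos (red). Filled points have an adjusted p under 0.05; Ctc1 is filled and negative in both, at -2.03 and -2.49, and Terc was tested in ESCs only.

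Summed markers of the oocyte and of pluripotent cells also differed between the embryo groups. The 7 markers of RNA stored in the oocyte (Zar1, Nlrp5, Ooep, Padi6, Bmp15, Zp3 and Gdf9) summed to 1158 to 2629 normalised reads in the embryo controls and to 2966 to 7961 with RNAi, and 3 of the 7 passed as higher in limma. The 3 genes of 2-cell transcription (Zscan4d, Tcstv3 and Usp17lc) summed to 404 to 1020 in controls and 113 to 342 with RNAi, with 2 of 3 lower. The 8 ESC markers summed to 525 to 985 in controls and 241 to 380 with RNAi, with 2 of 8 lower. Control 5 had the highest oocyte-stored sum and the lowest 2-cell sum of the controls, and for Terf1, Tinf2, Acd and Ctc1 it was the control nearest to the RNAi libraries. Without control 5 the same count of 4 passed in limma, with log2 fold changes of -2.68 for Terf1, 1.40 for Tinf2, 1.02 for Acd and -2.66 for Ctc1. Larger differences follow from leaving out the control nearest to the RNAi libraries, so this fit adds no support. The part of these marker groups in the telomere gene values was not tested. Fibroblast markers summed to 2.34 to 24.3 in controls and 5.74 to 43.0 with RNAi, and blood markers to 26.8 to 68.4 and 6.52 to 140.

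**Figure D4:**
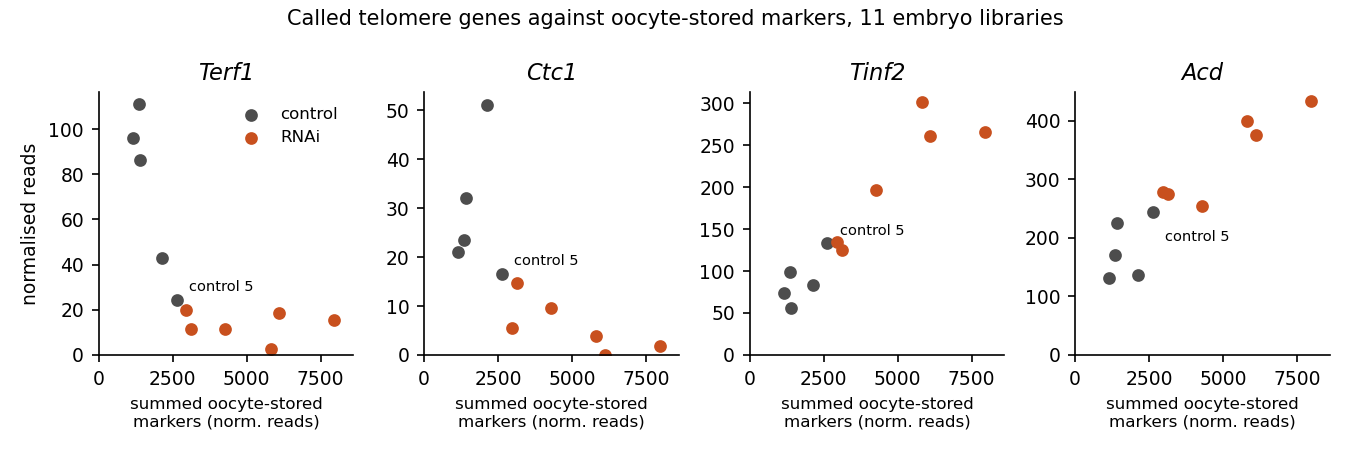
Normalised reads of Terf1, Ctc1, Tinf2 and Acd (vertical) against the summed normalised reads of the 7 oocyte-stored markers (horizontal) in 5 control (grey) and 6 RNAi (orange) embryo libraries. Control 5, at a marker sum of 2629, lies beside the RNAi libraries in each panel.

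The genes whose log2 level ran closest to that of Terf1 over the 11 embryo libraries were Nsa2 (Pearson r = 0.97), Nosip (0.97) and Rnf7 (0.96). With each group's mean removed, r was 0.95, 0.95 and 0.90. Mean levels in controls and with RNAi were 116 and 26.9 normalised reads for Nsa2, 73.5 and 23.1 for Nosip and 151 and 27.8 for Rnf7, a direction fixed by the choice of genes that follow Terf1 over the same 11 libraries. Among the telomere genes, Tinf2 and Acd ran together (r = 0.84, and 0.55 within groups). Terf1 ran against Tinf2 (-0.83, and -0.50 within groups), and Ctc1 against Tinf2 (-0.85, and -0.62) and Acd (-0.83, and -0.57). These genes were called in the same libraries, so r over all 11 holds their group differences. Other pairs changed more: Terf1 with Acd (-0.76, and -0.32 within groups), Terf1 with Ctc1 (0.57, and -0.15) and Pot1a with Ctc1 (-0.16, and 0.63). Within groups the highest r was that of Terf2ip and Tert (0.76, and 0.44 over all 11 libraries), with Tert at 4 reads in controls and 18 with RNAi.

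Besides the 10, 55 other genes of telomere upkeep were read from 6 lists, also written with earlier results of these data known. In ESCs 54 were tested, 7 were higher and 2 lower, where 11.7% of all genes tested were higher and 11.4% lower, and the median log2 fold change was 0.15. Of 11 genes tested in the telomerase assembly list, in which Pinx1 was counted, 2 were higher, Pinx1 and Shq1. Pinx1, an inhibitor of telomerase that binds Tert, stood at 298 ± 14.3 normalised reads in controls and 1415 ± 476 with overexpression (SD, n = 2; log2 fold change 2.20, SE 0.29, limma adjusted p = 0.0186), in the cells in which Tert was lower. Of the 6 genes in the list of CST partners and fill-in synthesis, 0 passed in limma, edgeR, DESeq2 or voom, with 1 at an unadjusted p under 0.05 in limma, while Ctc1 itself passed in each.

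Among the remaining lists the flap endonuclease gene Fen1 stood at 1286 ± 7.68 and 3321 ± 179 normalised reads (SD, n = 2; log2 fold change 1.37, limma adjusted p = 0.0155), with 84.2% of its exonic bases shared with other genes. Ercc4, part of a nuclease that trims overhangs, stood at 323 ± 13.9 and 828 ± 67.0 (1.36, limma adjusted p = 0.0189). Sirt6, a deacetylase of telomeric chromatin, stood at 392 ± 15.9 and 978 ± 305 (1.28, limma adjusted p = 0.0405), and that call was lost with chromosome centring (0.89, adjusted p = 0.115) and with quantile normalisation (adjusted p = 0.0609). The genes called lower were Sun1, which ties telomeres to the nuclear envelope in meiosis, at 4465 ± 25.1 and 1482 ± 336 (-1.61, limma adjusted p = 0.0189), and Pif1, a helicase that removes telomerase from ends, at 2463 ± 184 and 1245 ± 32.5 (-0.98, limma adjusted p = 0.0248). As with the telomere genes, these calls were lost without either control while the log2 fold changes stayed near their values, for example 2.25 and 2.16 for Pinx1 and -1.60 and -1.62 for Sun1.

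In the embryos 52 of the 55 were tested, 0 were higher and 14 lower in limma, with a median log2 fold change of -0.51, where 6.13% of all genes tested were higher and 12.0% lower. No gene was higher in edgeR, DESeq2 or voom, nor at an unadjusted p under 0.05 in limma. The telomerase assembly list held 5 of the 14 (Dkc1, Nop10, Nhp2, Wrap53 and Ruvbl1), out of 10 tested, with a median of -1.41. Nhp2, a protein of the mature telomerase particle that also serves ribosomal RNA, stood at 482 ± 227 normalised reads in controls (SD, n = 5) and 80.4 ± 77.9 with RNAi (SD, n = 6; log2 fold change -3.09, SE 0.62, limma adjusted p = 0.00409). Wrap53, which carries telomerase to Cajal bodies, stood at 60.5 ± 17.6 and 14.1 ± 15.7 (-3.10, SE 0.81, limma adjusted p = 0.0133), a value of -1.95 and a lost call with edgeR (adjusted p = 0.0689) and -2.08 with DESeq2, and the group means differed 4.28-fold. Tert and Terc, the core that these proteins serve, were at 4 and 0 reads in the same controls. Terc had no read in the deeper ESC controls either, so its 0 does not measure its level.

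The CST partner and fill-in list had 2 of 6 lower, the primase subunits Prim1 and Prim2. Prim1 stood at 71.3 ± 36.6 normalised reads in controls (SD, n = 5) and 11.9 ± 7.70 with RNAi (SD, n = 6; log2 fold change -2.65, limma adjusted p = 0.00424), and its groups, like those of Ctc1, did not overlap. Among shelterin partners 4 of 13 were lower, Ercc1, Gnl3, Gnl3l and Rif1. Gnl3l, a nucleolar GTPase that binds Terf1, stood at 25.2 ± 10.5 and 3.43 ± 4.15 (-3.03, limma adjusted p = 0.00601), so Terf1 and this partner were lower in the same libraries. Of the genes of telomere recombination and telomeric chromatin 0 of 8 passed in limma, edgeR, DESeq2 or voom, and 0 had an unadjusted p under 0.05 in limma, with a median of -0.07. With edgeR 9 of the 52 passed, all lower, where 13.2% of all genes tested passed in either direction.

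**Figure D5:**
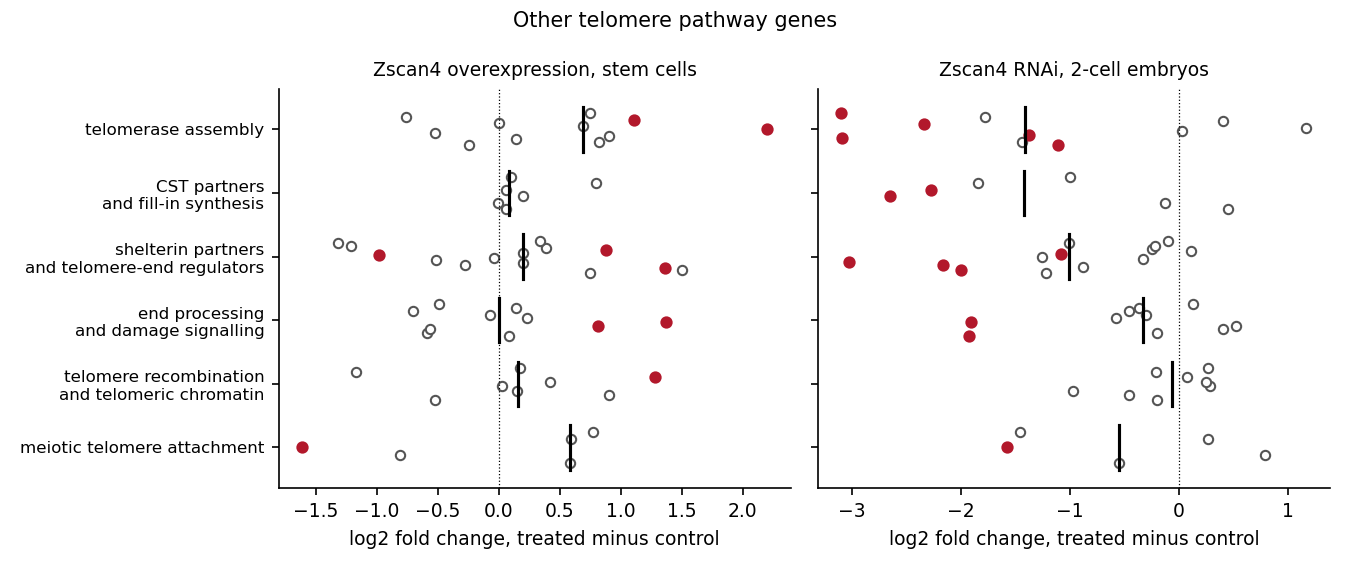
Log2 fold change (treated minus control) of the other telomere pathway genes by list, in ESCs with Zscan4 overexpression (left) and embryos with Zscan4 RNAi (right). Each point is a gene, red points passed the adjusted threshold, and black bars are list medians. The telomerase assembly bar lies at 0.69 in ESCs and -1.41 in embryos, over partly different genes. Both bars include Pinx1, an inhibitor of telomerase. Nhp2 is missing from the ESC bar, and Naf1 and Shq1 were not tested in embryos.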

How the data were processed

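RNA-Seq values of 15 libraries were read from 1 table for ESCs and 1 for embryos. The labels name genomic DNA and a transposase-based DNA library kit, and the embryo samples carry the stem cell growth text, but all titles name RNA-Seq; the values are per gene and were treated as RNA levels. The submitters' processing notes list the tools Trimmomatic, HISAT2 and featureCounts and the build mm10, without versions, annotation, strand setting or how reads matching several genes were treated. The deposited values are a signal, reads per gene over a size factor for each library. This was read from the values: 100% of them fell within 0.01 read of a whole number once divided by the step of their library, which gave back whole reads. The tables were normalised separately and fitted separately.

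The main test was limma 3.58.1 with a trend on log2(value + 1), without covariates, over genes at 1 or more in 2 ESC or 5 embryo libraries, and p-values were adjusted by Benjamini-Hochberg and called under 0.05. Count tests on the recovered reads were alternatives (edgeR 4.0.16, DESeq2 1.42.0 and voom), as were other pseudocounts, filters, scalings, array weights, chromosome centring, a replicate block and leaving out each library. The fit was also run on simulated data with the same spread setting for all genes and both groups. That run does not cover the unequal spread of the ESC groups (median SD 0.09 and 0.41). Embryo control columns are numbered 1 to 5 and the labels number those controls otherwise, so the numbers only name libraries. The 10 genes, the lists and the motifs were chosen with earlier results of these data known. All 10 were named; of the 55 other pathway genes, the 4 with the largest absolute log2 fold change among those called in each direction were named with values, and for the gene with the smallest embryo p the 3 tested genes with the highest correlation. The 2-cell marker list was split into oocyte-stored and 2-cell transcribed genes after the files were read. Nhp2 was not analysed in ESCs. Positions are from GENCODE vM21. RefSeq promoter windows were matched by symbol for 8 of the 10 genes, and not used here for Terf1 and Terc.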

Additional observations from a re-analysis of the deposited data

Results flagged for a closer look

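Within the embryo groups, 24 sets of 5 or 6 libraries were checked for a value far from the others, and 2 stood out; chance marks about 1 in 20 such sets. Terf2ip stood at 66.5 normalised reads in RNAi library 3, far above the other RNAi libraries, whose median with it was 20.3. The Terf1 share of Terf1 and Terf2 reads was 65.8% in embryo control 5, where the other 4 controls lay between 89.5% and 96.5%.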

How the results depend on the processing

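For the ESC telomere genes and named pathway genes, 221 of 255 values under an alternative kept their direction and their side of the threshold, 22 calls were lost, 10 were gained and 2 values reversed; for the embryos 260 of 270 kept both, 8 calls were lost and 2 gained. The reversals were Terf2 and Acd in ESCs, which ranged from -0.03 to 0.29 and from -0.07 to 0.81, the low ends without overexpression library 2 and the high ends without library 1. Leaving out each library in turn, the ESC calls ranged from 0 to 10855 over all genes, 0 to 8 of the 10 telomere genes and 0 to 43 of the other pathway genes, and each 0 came from leaving out either control. In the embryos the calls ranged from 1730 to 3578 over all genes, 3 to 4 telomere genes and 8 to 16 pathway genes. The embryo calls of Terf1, Tinf2 and Ctc1 held in all 21 alternatives, at adjusted p of at most 0.0246, 0.0440 and 0.0417. The ESC difference in Terf1 share ranged from -2.43 to 5.36 percentage points, the embryo one from -18.2 to -10.6 and the embryo Pot1a share from 9.50 to 16.3. Array weights gave 3195 ESC calls over all genes, DESeq2 gave 15 ESC pathway calls and edgeR 9 embryo pathway calls; the cause was not tested.

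With the replicate number as a block, limma called 6024 ESC genes, 4 of the 10 telomere genes (Pot1b added, -1.44, adjusted p = 0.0317) and 13 pathway genes. Same-numbered ESC libraries did not deviate together (correlation -0.00719). With 2 libraries in each group that value cannot decide whether the numbers pair them. No paired analysis was possible in the embryos because the control columns carry other numbers than the labels. Depth limits Tert, Terc and Pot1b in the embryos.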
